A study of Homo sapiens with 4 samples.

Results

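Cadherins are calcium-dependent adhesion receptors that join neighbouring cells, and this account covers 7 of them: CDH1, CDH2, CDH3, CDH5, CDH6, CDH11 and CDH13. The genes were chosen by name, as the classical cadherins and their relatives whose repertoire differs between epithelial and mesenchymal cells, and their probe sets were found through the gene symbols of the array's annotation. Of the 7 genes, 6 had a named probe set, 1 each, among 17687 named genes and 21448 probe sets. CDH13 (T-cadherin), which is held in the membrane by a lipid anchor, was not analysed here because the annotation used lists no probe set under its symbol.

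The study asked which genes differ when miR-410 is overexpressed in androgen-independent prostate cancer cells. Total RNA was profiled on 4 arrays of the Clariom S type, with PC3 and C42B cells each carrying either of 2 constructs and 1 array for each. PC3 is an established line from a bone metastasis of prostate cancer without androgen receptor signalling, and C42B is a bone-metastatic derivative of the androgen-responsive LNCaP line. All 4 cell populations were stable transfectants selected in puromycin and carried a pMIR plasmid in which the CMV promoter drives either the human miR-410 precursor (miR-410) or a scrambled control (miR-CON), with a GFP reporter. Each array stands for 1 stable transfectant, and nothing in the sources used here says whether it was a clone or a pool.

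The classical cadherins bind like partners on the next cell through their outer domains, while their inner tails hold beta-catenin or plakoglobin, which reach the actin cytoskeleton through alpha-catenin. Epithelia rely on CDH1 (E-cadherin), and many carcinoma cells that have moved towards a mesenchymal state carry CDH2 (N-cadherin) or CDH11 instead, an exchange known as cadherin switching. In prostate cancer this exchange is known from high-grade and metastatic tumours.

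The constructs were designed around hsa-miR-410, whose 2 mature arms are shown because they are what the labelled pairs differ in. They are printed 5′ to 3′ from RefSeq (GRCh38.p14), with the seed, bases 2 to 8, in capitals. The plasmid's own sequence was not used here.
hsa-miR-410-3p (chr14:101065961-101065981, plus strand): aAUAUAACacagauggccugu
hsa-miR-410-5p (chr14:101065925-101065945, plus strand): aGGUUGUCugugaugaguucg
The seeds of the arms are AUAUAAC and GGUUGUC, and the 3′ arm is the form the study transfected as a precursor in its other assays. Seed matches in the cadherin transcripts were not analysed here.

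The labels conflict, and this bears on every direction given. The array titled PC3 miR-CON has genotype and description fields that say miR-410, and the array titled PC3 miR-410 has fields that say control microRNA, so arrays are called by their titles and each difference in the pair titled PC3 changes sign if the fields hold. The line titles also go against lineage genes. Of 12 genes typical of the LNCaP lineage, 10 had named probe sets and 8 of these were higher on the arrays titled PC3 (limma, Benjamini-Hochberg adjusted p under 0.05; 6 to 8 kept the call with each array left out), with a median log2 difference of 2.09. KLK3, the gene for prostate-specific antigen, had log2 values of 11.04 and 11.17 on the arrays titled PC3 against 7.18 and 6.74 on those titled C42B. All 12 genes typical of PC3 were lower on the arrays titled PC3, with a median of -4.70. Among all genes, the same test called 14.1% in the direction of the LNCaP list and 11.7% in that of the PC3 list. Both lists were drawn up with earlier results of these data known, so their counts are not an independent check of the titles. The study's list of array genes carries CDH6 under the C42B line, at the fold found here in the pair titled PC3. Its sign there is opposite to the titles of either pair and is that of the fields in the pair titled PC3. "The pair titled PC3" and "the array titled PC3" therefore name a label, not a verified line. The array medians lay between 6.34 and 6.39, and over all probe sets arrays correlated at Pearson's r of 0.98 to 0.99 within a pair and 0.881 to 0.886 between pairs.

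Values are log2 RMA, a background-corrected and quantile-normalized probe set summary in which a step of 1 is a doubling of signal. Levels are compared between arrays for 1 probe set, never between probe sets. The median of all values was 6.36, and a value under it is called dim here because no detection call was used. Whether a dim value lay above background was not examined, so a fold or rank that rests on one is a ratio of signals and not of transcript. Because the values come from bulk RNA, fewer cells with a transcript and less transcript per cell cannot be told apart.

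Between the lines as titled, 3 of the 6 measured cadherins differed: CDH1 was higher on the arrays titled PC3, and CDH2 and CDH11 were higher on the arrays titled C42B. Over all genes, 25.8% differed in this test, 14.1% with the arrays titled PC3 higher and 11.7% with them lower. The arrays of the titled lines did not overlap for 4 of the 6 cadherins, with those titled PC3 above for 1 and below for 3, where 64.5% of all genes did not overlap (35.2% above and 29.4% below). The median difference of the 6 cadherins was -1.59 and that of all genes 0.03. The test was limma, a linear model per gene whose variance is shared across genes, with 2 arrays per line. The 2 arrays of a line carried different constructs, so its p-values measure only the spread between these transfectants. A fit with an array left out keeps 1 array in that line, so its error comes from the other line and the shared variance. Calls kept or lost in such fits are therefore given as descriptions, not as tests.

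**Figure D1:**
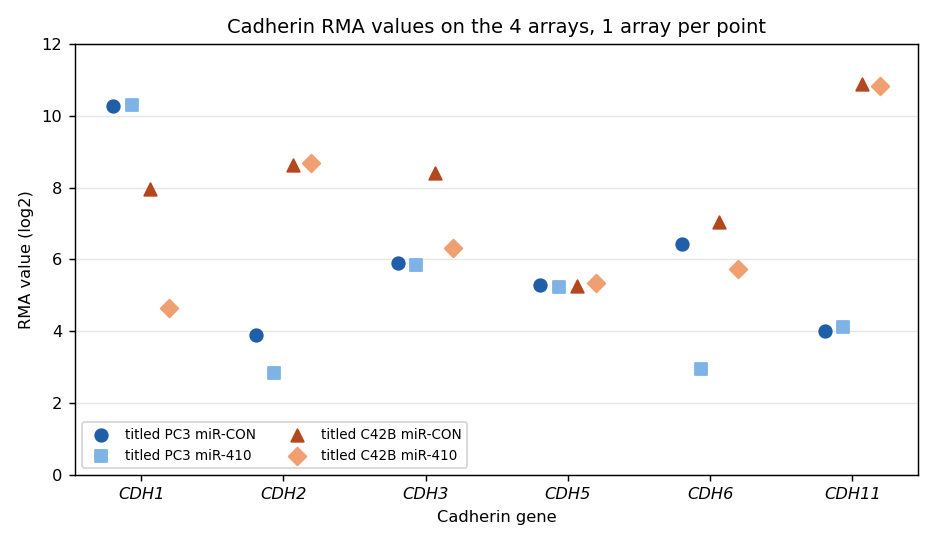
Log2 RMA value (y axis) of the 6 measured cadherins (x axis) on each of the 4 arrays, 1 array per point, marked by title. CDH2 and CDH11 lie at 4.11 or less on both arrays titled PC3 and at 8.64 or more on both titled C42B, while CDH5 stays between 5.22 and 5.35.

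CDH1 encodes E-cadherin, the adhesion receptor of epithelial adherens junctions. By title, its log2 values were 10.27 (miR-CON) and 10.29 (miR-410) in PC3, then 7.97 (miR-CON) and 4.63 (miR-410) in C42B. Both arrays titled PC3 stood above both titled C42B, with the nearest arrays 4.92-fold apart, and only the array titled C42B miR-410 was dim. The difference between lines was 3.98 ± 1.01 (log2, SE, n = 2 arrays per line), with a limma adjusted p of 0.0382. Within the arrays titled miR-CON alone it was 2.30, and within those titled miR-410 it was 5.66. The call was lost with trended, robust moderation (limma adjusted p = 0.144) and without either array titled PC3. The difference was 3.99 without PC3 miR-CON, 3.97 without PC3 miR-410 and 2.31 without C42B miR-410.

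CDH2 encodes N-cadherin, the receptor of neural and mesenchymal junctions. CDH2 had log2 values of 3.88 and 2.82 in PC3 by title (miR-CON, miR-410) and 8.64 and 8.67 in C42B. Both arrays titled PC3 were dim, and the nearest arrays of different lines were 27.0-fold apart in signal. CDH2 was lower on the arrays titled PC3 by a log2 difference of -5.30 ± 0.35 (SE, n = 2), with a limma adjusted p of 0.000494. The sign was the same within either construct by title, at -4.75 in miR-CON and -5.85 in miR-410.

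CDH11 encodes a type II cadherin of osteoblasts and mesenchymal cells, and it showed the widest separation of the 6. CDH11 had log2 values of 3.998 and 4.11 on the arrays titled PC3 and 10.88 and 10.84 on those titled C42B. The arrays of a line lay close together and the lines did not overlap, with 106-fold in signal between the nearest arrays. Both arrays titled PC3 were dim for it. The difference was -6.81 ± 0.16 (SE, n = 2), with a limma adjusted p of 7.67e-05. With each array left out in turn, the CDH2 difference ran from -5.83 to -4.77 and that of CDH11 from -6.86 to -6.75. Both kept their calls with every setting that used all arrays.

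CDH3 encodes P-cadherin, the receptor of basal epithelial cells, and it did not pass the test between lines. CDH3 had log2 values of 5.90 and 5.83 on the arrays titled PC3, 8.40 on C42B miR-CON and 6.33 on C42B miR-410. The lines did not overlap, but the nearest arrays were only 1.34-fold apart, and 3 of the 4 values were dim. The difference was -1.496 ± 0.64 (SE, n = 2) with a limma adjusted p of 0.154. Without the array titled C42B miR-410 it was -2.54, and without C42B miR-CON it was -0.46.

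CDH6 encodes K-cadherin, a type II receptor of developing kidney. CDH6 had log2 values of 6.43 and 2.96 in PC3 by title (miR-CON, miR-410) and 7.04 and 5.73 in C42B. The lines overlapped, because the array titled PC3 miR-CON stood above that titled C42B miR-410. The difference between lines was -1.69 ± 1.12 (SE, n = 2) with a limma adjusted p of 0.338. It was 0.04 without the array titled PC3 miR-410 and -3.43 without PC3 miR-CON, so the value rests on both arrays titled PC3. It was -1.04 without C42B miR-CON.

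CDH5 encodes VE-cadherin, the receptor of endothelial junctions. Its log2 values were 5.29 and 5.22 in PC3 by title (miR-CON, miR-410) and 5.27 and 5.35 in C42B. All 4 were dim and lay within 0.13 of each other. The difference between lines was -0.06 ± 0.16 (SE, n = 2), with a 95% confidence interval from -0.46 to 0.34 and a limma adjusted p of 0.847. Of 11 endothelial markers 3 were lower on the arrays titled PC3 and 0 were higher, beside 11.7% and 14.1% of all genes. Among the 3 were PECAM1, a platelet and endothelial adhesion receptor (-0.84), and KDR, a VEGF receptor (-4.93). KDR alone kept its call with each array left out in turn. Their summed log2 level was 57.4 on both arrays titled PC3 and 64.0 to 64.1 on those titled C42B, and KDR had the largest difference of the 11. Of the 11, 6 were dim on all 4 arrays, PECAM1 among them, while EGFL7, a secreted vascular factor, was not dim on any (7.81 to 8.22), and KDR was bright only on the arrays titled C42B (7.58 and 8.88).

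Within each pair there was 1 array per construct, so the differences carry no error and no test, and a gene was called at 2-fold. Of the 6 cadherins, 2 were lower with miR-410 by title and 0 were higher in the pair titled PC3, where 1.1% of all genes were called (0.656% lower and 0.441% higher). For the pair titled C42B, 3 of the 6 were lower and 0 were higher, where 3.6% of all genes were called (2.26% lower and 1.35% higher). The median difference of the 6 was -0.07 in the pair titled PC3 and -0.68 in the pair titled C42B, against -0.01 and 0.01 over all genes. The middle 95% of genes lay between -0.66 and 0.62 in the pair titled PC3 and between -0.95 and 0.83 in the pair titled C42B.

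**Figure D2:**
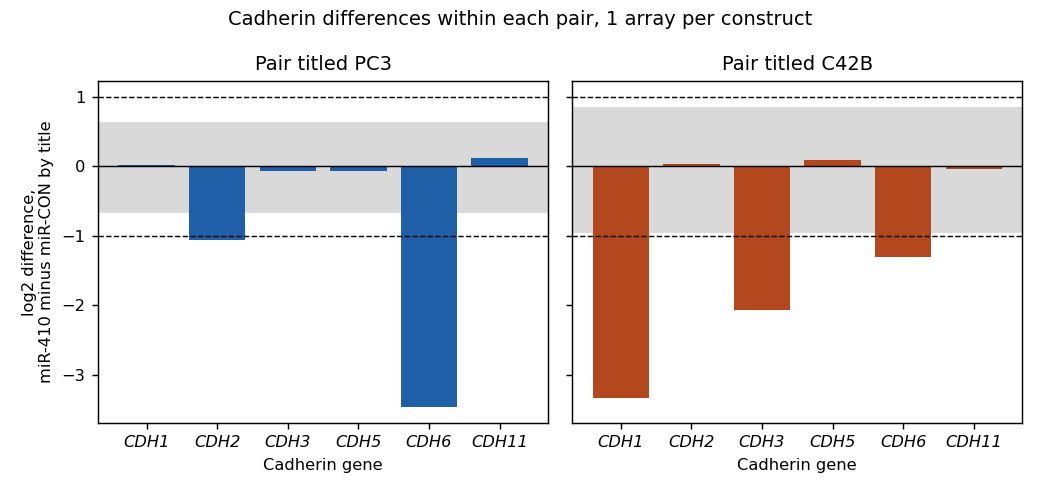
Log2 difference, array titled miR-410 minus array titled miR-CON (y axis), of the 6 cadherins in each pair, 1 array per construct, with the middle 95% of all genes in grey and 2-fold dashed. CDH6 passes 2-fold in both pairs (-3.47 and -1.31), CDH2 only in the pair titled PC3, and CDH1 and CDH3 only in the pair titled C42B.

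CDH6 was the cadherin called in both pairs. It was 6.43 with miR-CON and 2.96 with miR-410 in the pair titled PC3, a difference of -3.47 or 11.1-fold, and 0.0452% of all genes differed by as much. The values were 7.04 and 5.73 in the pair titled C42B, a difference of -1.31 or 2.48-fold, and 1.81% of genes differed by as much. Both values with miR-410 by title were dim, and the others were not. If the genotype and description fields hold, the difference in the pair titled PC3 is 3.47 and its direction is opposite to that in the pair titled C42B. The smaller difference was not called at 3-fold.

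CDH1 differed only in the pair titled C42B. It was 10.27 and 10.29 in the pair titled PC3, a difference of 0.02. In the pair titled C42B it was 7.97 with miR-CON and 4.63 with miR-410, a difference of -3.34 or 10.1-fold, and 0.153% of genes differed by as much. The difference between the pairs was not tested.

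CDH3 was called in the pair titled C42B, as CDH1 was. It was 5.90 and 5.83 in the pair titled PC3, a difference of -0.07, and 8.40 and 6.33 in the pair titled C42B, a difference of -2.08 or 4.22-fold. CDH3 lies next to CDH1 on chromosome 16 in the order of RefSeq genes (GRCh38.p14). The genes that flank CDH3 and CDH1 were under 2-fold in the pair titled C42B, with ZFP90, a zinc finger gene, at -0.08 and TANGO6, a trafficking gene, at -0.03. The hyaluronan synthase gene HAS3, also close by, was at 0.19. CDH11 and CDH5 are neighbours on the same chromosome, and their values between lines (-6.81 and -0.06) were not alike. CDH6, on chromosome 5, had as neighbour DROSHA, the nuclear enzyme that cuts miRNA precursors, with 0.08 and 0.12 in the pairs titled PC3 and C42B.

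CDH2 was past 2-fold only in the pair titled PC3, where both of its values were dim. It was 3.88 with miR-CON and 2.82 with miR-410, a difference of -1.06 or 2.09-fold, and 0.961% of genes differed by as much. The call was not made at 3-fold or with dim genes left out, and by the fields it is 1.06. CDH2 was bright in the pair titled C42B, at 8.64 and 8.67, a difference of 0.03.

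CDH11 and CDH5 stayed under 2-fold in both pairs. CDH11 differed by 0.12 in the pair titled PC3 and by -0.04 in the pair titled C42B. CDH5 differed by -0.07 and 0.08.

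An exchange of cadherins would show as a mesenchymal cadherin that is higher where CDH1 is lower in the same pair. CDH1 was lower by title in the pair titled C42B, while CDH2 and CDH11 differed by 0.03 and -0.04, and CDH6 and CDH3 were lower too. The differences of these genes minus that of CDH1 were 3.37 for CDH2, 3.30 for CDH11, 2.03 for CDH6 and 1.26 for CDH3, and for CDH2 and CDH11 nearly the whole of this was the CDH1 value. The same quantities in the pair titled PC3 were -1.08 for CDH2, 0.10 for CDH11, -3.49 for CDH6 and -0.08 for CDH3. No mesenchymal cadherin was 2-fold higher with miR-410 by title in either pair. By the genotype and description fields, the values of the pair titled PC3 change sign. CDH2 (1.06) and CDH6 (3.47) are then past 2-fold higher, with CDH1 at -0.02. The large opposite values of CDH1 against CDH2 and CDH11 lay between the titled lines.

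**Figure D3:**
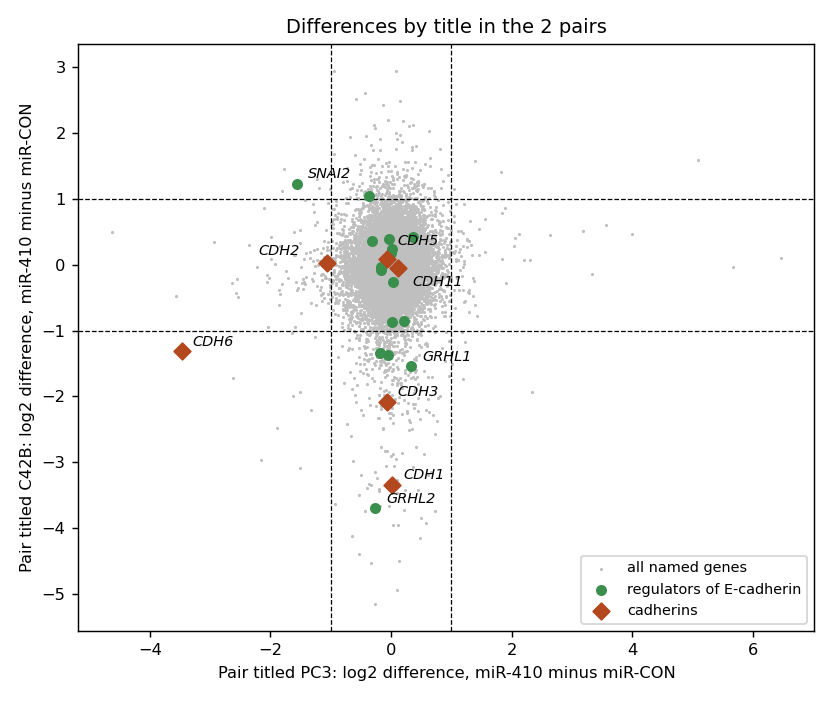
Log2 difference, miR-410 minus miR-CON by title, in the pair titled C42B (y axis) against the pair titled PC3 (x axis) for all named genes in grey, the cadherins as diamonds and the regulators of E-cadherin as circles, with 2-fold dashed. By title, CDH6 is lower in both pairs, CDH1 (-3.34) and GRHL2 (-3.70) are low only in the pair titled C42B, and SNAI2 has opposite signs. The x values change sign if the genotype and description fields hold.

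Among 16 other genes named CDH, 15 had named probe sets, and 2 differed between the titled lines, both lower on the arrays titled PC3, where 11.7% of all genes were lower. CDH12 (brain cadherin), which is type II like CDH6 and lies on chromosome 5, had log2 values of 3.45 and 3.85 in PC3 by title (miR-CON, miR-410) and 8.51 and 6.63 in C42B, a difference between lines of -3.92 ± 0.60 (SE, n = 2) with a limma adjusted p of 0.0078. It was the 1 gene of this list past 2-fold in the pair titled C42B, at -1.88. CDH7, another type II cadherin, had 4.72, 5.85, 7.56 and 7.18 on the same arrays, a difference between lines of -2.09 ± 0.39 (SE, n = 2) with a limma adjusted p of 0.0148. It was the 1 gene past 2-fold in the pair titled PC3, at 1.13, with both values dim and the sign turned if the fields hold. Both kept their calls between lines with each array left out. The median of the list was -0.12 between lines, -0.01 in the pair titled PC3 and -0.31 in the pair titled C42B.

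The partners that tie cadherins to actin differed between the titled lines in both directions. Of 25 catenins and actin linkers 24 had named probe sets, and 5 stood higher and 9 lower on those titled PC3, beside 25.8% of all genes called, with a list median of -0.15. CTNNA1 encodes alpha-catenin, which carries the link from beta-catenin to actin and is known to be deleted in PC3 cells. Its log2 values were 9.99 and 10.11 on the arrays titled PC3 and 3.30 and 3.95 on those titled C42B, a difference of 6.42 ± 0.25 (SE, n = 2) with a limma adjusted p of 0.000133. Both arrays titled C42B were dim for it.

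JUP encodes plakoglobin, the catenin shared with desmosomes. JUP had log2 values of 9.60 and 9.36 on the arrays titled PC3 and 8.25 and 7.22 on those titled C42B. The difference was 1.75 ± 0.35 (SE, n = 2) with a limma adjusted p of 0.0193. Without the array titled PC3 miR-CON it was 1.62, and the call was lost. The cytoskeletal gene SHROOM3 was also higher on the arrays titled PC3 (2.496), and the adhesion genes NECTIN3 (-2.29), VCL (vinculin, -2.07) and ZYX (zyxin, -1.97) were lower. CTNNB1, the gene for beta-catenin, had 10.75, 10.48, 10.94 and 11.25 on the 4 arrays and a difference of -0.48 with a limma adjusted p of 0.143. Within the pairs, JUP in the pair titled C42B (-1.03) was the 1 linker past 2-fold, and the list medians were 0.08 (PC3) and 0.05 (C42B). Of the 14 linkers that differed between lines, 7 kept the call without the array titled PC3 miR-CON, 8 without PC3 miR-410, 12 without C42B miR-CON and 14 without C42B miR-410.

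**Figure D4:**
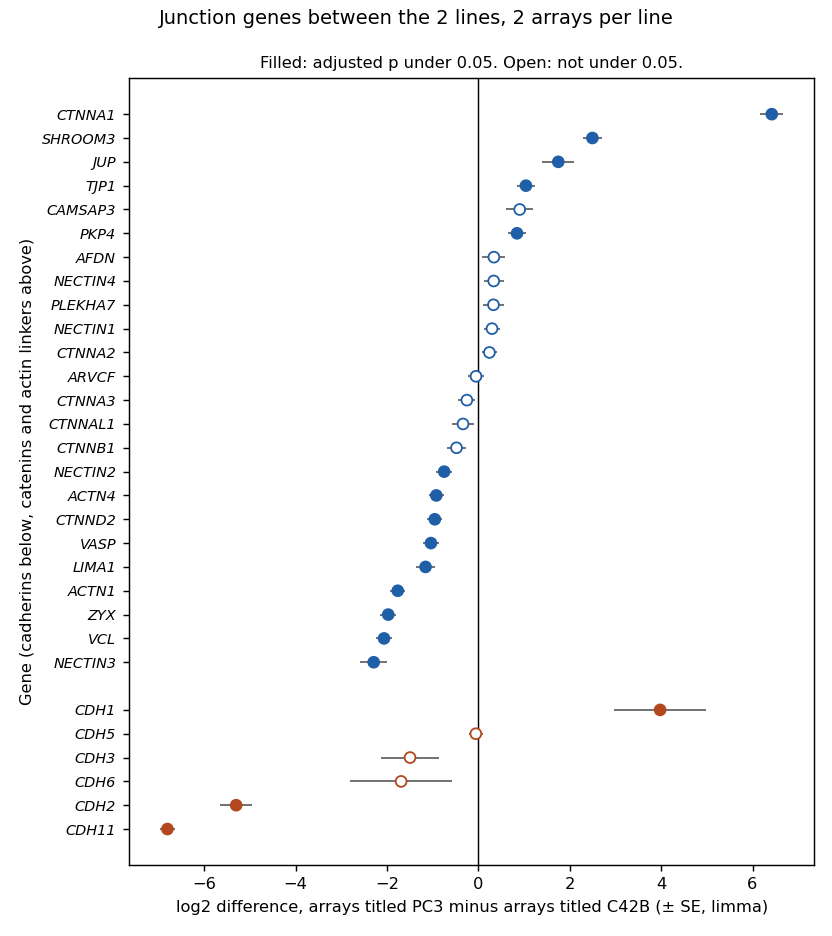
Log2 difference, arrays titled PC3 minus arrays titled C42B (x axis, point ± SE of limma, 2 arrays per line), for the 24 catenins and actin linkers in blue and the 6 cadherins in red (y axis), filled where the adjusted p is under 0.05. CTNNA1 (6.42) and CDH1 (3.98) lie at the high end and CDH2 (-5.30) and CDH11 (-6.81) at the low end.

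Of 20 genes that process or recycle cadherins 18 had named probe sets. The arrays titled PC3 were higher for 2 and lower for 2, beside 25.8% of all genes called, and the list median was 0.22 between lines, 0.02 in the pair titled PC3 and 0.16 in the pair titled C42B. ADAM10, the protease that sheds E-cadherin, was higher on the arrays titled PC3 by 0.96 and the recycling gene RAB11A by 0.71, while the endocytic adaptor NUMB (-1.35) and the protease ADAM17 (-0.82) were lower. The calls of ADAM10, ADAM17 and RAB11A were lost without either array titled PC3. FURIN, a convertase that can cut the cadherin precursor, was past 2-fold in the pair titled C42B only, at -1.04 (7.71 and 6.67).

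All 16 transcription factors listed as acting on CDH1 had named probe sets. The arrays titled PC3 were higher for 4 and lower for 5, and 7 were not called, beside 25.8% of all genes called. ZEB1, a repressor of CDH1, had 3.13 and 3.09 on the arrays titled PC3 and 10.11 and 10.50 on those titled C42B, a difference of -7.19 ± 0.20 (SE, n = 2) with a limma adjusted p of 9.05e-05. SNAI2, another repressor, was lower by -3.23 ± 0.61, while SNAI1, also a repressor, was higher by 0.95 ± 0.18, and the activators GRHL1 and FOXA1 were higher by 2.47 ± 0.50 and 2.31 ± 0.44. Of the 9 calls, 6 were kept without the array titled PC3 miR-CON, 5 without PC3 miR-410, 9 without C42B miR-CON and 8 without C42B miR-410. The SNAI1 call was lost without either array titled PC3, and that of GRHL1 without PC3 miR-410 (difference 2.30).

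Within the pair titled C42B, 4 of the 16 factors were past 2-fold lower and 2 higher, beside 2.26% and 1.35% of all genes. The activator GRHL2 was lower by title by a difference of -3.70 (8.36 and 4.67), as were GRHL1 (-1.54), FOXA1 (-1.36) and OVOL1 (-1.34), and the repressors SNAI2 (1.23) and TWIST2 (1.04) were higher. In that pair both values of GRHL1, OVOL1 and TWIST2 were dim. ZEB1 differed by 0.39 there. Only SNAI2 was past 2-fold in the pair titled PC3, at -1.56, beside 1.1% of all genes.

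CAGGTG and its reverse complement CACCTG, the E-box form that SNAI and ZEB proteins bind, were searched on both strands in the 250 bases before each RefSeq start (GRCh38.p14). Of the 6 measured cadherins 1, CDH2, had promoter windows in the table used, and neither of its 2 windows held the motif. Over 12 CDH genes with windows it stood in 2 of 23 windows, and over all genes in 6143 of 35116, or 17.5%. The promoters of the other members were not analysed here.

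Of 10 epithelial markers 3 were past 2-fold lower and 0 higher in the pair titled C42B, beside 2.26% and 1.35% of all genes. The other 7 were under 2-fold, among them CLDN4, a tight junction gene, at 0.44 and KRT19, a keratin gene, at 0.05. The list median was -0.59. EPCAM, an epithelial adhesion molecule, was 11.07 with miR-CON and 7.61 with miR-410 by title, a difference of -3.46, and the tight junction genes OCLN and CLDN7 differed by -2.20 and -2.03. The summed log2 level of the 10 was 89.2 on both arrays titled PC3, 93.0 on C42B miR-CON and 82.9 on C42B miR-410. Their part in the CDH1 value was not tested.

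Between lines, 1 epithelial marker was higher on the arrays titled PC3 (CLDN7, 2.58) and 2 were lower (KRT7, -4.54, and KRT19, -3.33). Over all genes 14.1% were higher and 11.7% lower. The call of CLDN7 was lost without either array titled PC3, and without C42B miR-410 its difference was 1.56. Fibroblast and stromal markers were checked beside CDH2 and CDH11. Of 9 with named probe sets, 1 was lower on the arrays titled PC3 and 0 were higher, beside the same 11.7% and 14.1% of all genes. The 1 was the growth factor receptor gene PDGFRA (-3.20). The summed log2 level of these markers was 41.1 and 41.9 on the arrays titled PC3 and 45.5 and 46.5 on those titled C42B. PDGFRA had the largest difference of the 9. Of the 9, 6 were dim on all 4 arrays, among them DCN, a matrix proteoglycan gene, at 4.09 to 4.42. The collagen genes COL1A1 (7.03 to 7.63) and COL1A2 (7.53 to 7.92) were not dim on any array. LUM, another matrix proteoglycan gene, was the 1 such marker past 2-fold in the pair titled C42B, at 1.09, with both values dim.

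The genes whose pattern over the 4 arrays lay nearest to each cadherin were found by Euclidean distance after each gene's own mean was subtracted. For CDH1 they were GRHL2 (distance 0.331), the epithelial clathrin adaptor gene AP1M2 (0.389) and the phosphatase gene CTDSPL (0.407). For CDH2 they were CAV1, the caveola coat gene (0.330), NRP1, a semaphorin and VEGF co-receptor (0.338), and CLMP, an adhesion molecule (0.376). CDH3 was nearest to the secreted trefoil gene TFF1 (0.238), the scavenger receptor gene OLR1 (0.244) and the G protein regulator RGS9 (0.263).

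CDH11 was nearest to FOSL1, an AP-1 transcription factor (0.133), the cytidine deaminase APOBEC3C (0.219) and the lysophosphatidic acid receptor LPAR1 (0.262). CDH6 had no neighbour as close, with the pseudokinase gene TRIB2 at 0.947, the matrix gene THBS1 at 0.951 and the transmembrane gene SLITRK6 at 1.33. CDH5 was left out because its range over the arrays was under 1. The points are 4 arrays from 2 pairs, and differences between the titled lines and within a pair both enter the distances.

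**Figure D5:**
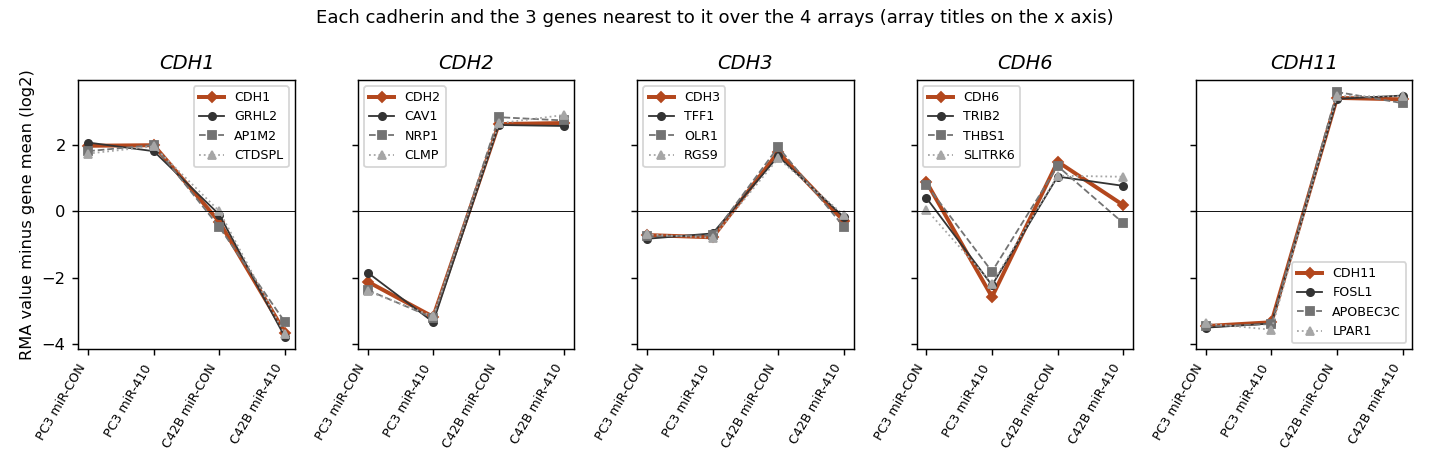
RMA value minus the gene's mean over the arrays (log2, y axis) on the 4 arrays by title (x axis), for 5 cadherins in red and the 3 nearest genes of each in grey and black. The CDH1 and CDH3 groups change within the pair titled C42B, the CDH6 group is low on PC3 miR-410, and the CDH11 group is flat within each pair.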

How the data were processed

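RNA from 4 stable transfectants was hybridised to Clariom S arrays. Per the study's methods and the submitters' processing notes, the authors used Partek with RMA (background correction, quantile normalization and probe summary). The deposited table holds the resulting log2 signal of every probe set. Scanner files and detection calls were not used here, so the number of arrays limits the precision. All 4 value columns mapped to a sample by title and 0 did not. Probe sets were named through the platform annotation: 17709 of 21448 had 1 symbol, 0 had several and 3739 were not listed. Probe sets of a gene were averaged (20 genes). RefSeq (GRCh38.p14) gave gene order, promoters and miRNAs, and no coordinates of probe sets.

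Lines were compared with limma 3.58.1 in R 4.3.3 over 17687 genes, without covariates, with Benjamini-Hochberg adjustment, two-sided, at 0.05. An exact permutation of 2 against 2 arrays could not reach that threshold. Constructs were compared within each pair as a log2 difference, called at 2-fold, with no test. Python 3.11.15, pandas 2.3.3 and statsmodels 0.14.6 were used for the rest. The limma fit and the loess subtraction were tested on simulated data, and the other steps were not. Named genes were all 7 cadherins, up to 3 leading genes per list, direction and comparison among those called, and the 3 nearest genes of each cadherin whose range was at least 1. Other genes printed as partners, neighbours or markers were chosen after their values were seen. The members and the 9 lists were chosen with earlier results of these data known. Alternatives were other normalizations, filters, thresholds and labels, and each array left out.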

Additional observations from a re-analysis of the deposited data

Results flagged for a closer look

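Some differences, miR-410 minus miR-CON by title, had opposite signs in the pairs titled PC3 and C42B. With 1 array per construct these differences between the pairs were not tested, and the sign in the pair titled PC3 turns if its genotype and description fields hold. Among the cadherins, CDH1 had 0.017 in the pair titled PC3 and -3.34 in the pair titled C42B. CDH2 had -1.06 and 0.032 in the same order, CDH5 had -0.074 and 0.084, and CDH11 had 0.12 and -0.044. The signs of differences this close to 0 moved with the normalization: CDH2 in the pair titled C42B was -0.10 after loess and -0.071 after quantile normalization, the sign it has in the pair titled PC3, and CDH1 in the pair titled PC3 was -0.0041 after loess. Each of these 4 cadherins was under 2-fold in at least 1 of the pairs.

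Among other CDH genes, CDH7 had 1.13 in the pair titled PC3 and -0.38 in the pair titled C42B, and CDH12 had 0.40 and -1.88. The convertase gene FURIN had 0.48 and -1.04. Of the regulators of E-cadherin, SNAI2 had -1.56 and 1.23, the 1 gene named here past 2-fold in both directions, TWIST2 had -0.36 and 1.04, and GRHL1 had 0.34 and -1.54. Of the markers, LUM had -0.071 and 1.09, EPCAM had 0.091 and -3.46, and OCLN had 0.58 and -2.20.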

How the results depend on the processing

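No pairing by replicate was possible because the labels give no replicate numbers and each group had 1 array. Arrays of the titled lines could be matched by construct only. The construct as a term in the line fit, by title or by field, left the called cadherins the same (CDH1 limma adjusted p 0.0214 and 0.0128). Between lines, the arrays titled PC3 were higher for 2488 genes and lower for 2078, and with each array left out these counts ran from 1071 to 2817 and from 1189 to 2223, the lowest without PC3 miR-410. CDH1, the 1 cadherin called higher, was not called with trended, robust moderation (0 cadherins higher) or without either array titled PC3 (0 to 1 with each array left out). The CDH6 difference ran from -3.43 (without PC3 miR-CON) to 0.044 (without PC3 miR-410), and the CDH5 difference was 0.073 after quantile normalization and 0.024 within the arrays titled miR-CON, a setting added after seeing the data. At 2-fold 78 genes were higher and 116 lower in the pair titled PC3, against 517 and 641 at 1.5-fold, 19 and 36 at 3-fold, and 33 and 44 with dim genes left out. Of its cadherins, 1 was lower at 3-fold and 1 without dim genes, and by the genotype and description fields 0 were lower and 2 higher (CDH2, 1.06, and CDH6, 3.47). In the pair titled C42B, 238 genes were higher and 399 lower, against 1202 and 1283 at 1.5-fold and 33 and 176 at 3-fold, with 249 lower when dim genes were left out. The exchange values kept their sign after loess and quantile normalization, which were added after seeing the data. Those of the pair titled PC3 turn if its genotype and description fields hold. With 2 arrays per line and 1 per construct and line, the error within a construct is not known.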
